A study of Mus musculus with 21 samples.

Results

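Transcripts of 9 transcription factors of excitatory neurons were followed in bulk RNA of the mouse cortex and hippocampus. They comprise the basic helix-loop-helix (bHLH) factors Neurod1, Neurod2, Neurod6 and Bhlhe22, the T-box factor Tbr1, the MEF2 factors Mef2a, Mef2c and Mef2d, and the zinc finger factor Zbtb20. The members were picked by name, and each of the 9 symbols matched a single gene among the 64361 in the count table. GA-Camk2a mice express GFP-tagged poly-GA, a dipeptide repeat protein made from the C9orf72 repeat expansion of ALS, through Camk2a-Cre in excitatory neurons. All mice were 30 to 40 weeks old and were taken at the humane endpoint of the transgenic animals. The labels call the control genotype ctrl and the study names its stained controls of this line Camk2a, the sex of the mice is not given, and the GA-Camk2a mice came from few litters. Cortex libraries came from 5 control and 6 GA-Camk2a mice. Hippocampus libraries came from 4 of the same controls and the same 6 transgenic animals, so both tissues were measured in 10 of 11 mice. These numbers follow the labels, whereas the study states 5 controls for the hippocampus and 4 for the neocortex. The 21 libraries were made with prime-seq, which reads the 3' end of transcripts, and fall into 2 batches that both hold libraries of every group.

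Bulk tissue does not separate cell types, so fewer cells of a type and less RNA per cell cannot be told apart in any value below. Neurogenic bHLH factors bind the E-box DNA motif as dimers with E proteins, and Id proteins block such dimers because they lack the DNA-binding region. Neurod2, Neurod6 and Bhlhe22 act in the differentiation and wiring of glutamatergic projection neurons, and Neurod6 remains in pyramidal neurons of the adult forebrain. Tbr1 is known for the identity of deep-layer corticothalamic neurons. MEF2 factors couple calcium signals, through the phosphatase calcineurin and class II histone deacetylases, to genes that set synapse number. Zbtb20 specifies hippocampal pyramidal neurons and is also made by astrocytes.

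The stretches before the annotated start of the 4 members whose transcripts fell in either tissue are shown because bHLH factors such as those of the set bind the E-box. Each stretch is 250 bases long and is written from 5' to 3' on the strand of the gene, from RefSeq on GRCm38.p6, with capitals for the E-box CANNTG, a motif that reads the same on both strands.
Neurod6, chr6:55681264-55681513, minus strand: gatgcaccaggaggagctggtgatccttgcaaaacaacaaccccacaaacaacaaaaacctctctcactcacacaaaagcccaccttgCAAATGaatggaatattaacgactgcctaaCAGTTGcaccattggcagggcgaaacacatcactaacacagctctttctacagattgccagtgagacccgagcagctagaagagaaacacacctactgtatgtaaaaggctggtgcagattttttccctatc
Neurod2, chr11:98329646-98329895, minus strand: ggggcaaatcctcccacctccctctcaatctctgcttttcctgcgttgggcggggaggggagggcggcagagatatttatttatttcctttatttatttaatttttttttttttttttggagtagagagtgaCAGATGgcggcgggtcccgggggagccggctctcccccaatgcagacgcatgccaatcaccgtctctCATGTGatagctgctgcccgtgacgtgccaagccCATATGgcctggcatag
Tbr1, chr2:61804203-61804452, plus strand: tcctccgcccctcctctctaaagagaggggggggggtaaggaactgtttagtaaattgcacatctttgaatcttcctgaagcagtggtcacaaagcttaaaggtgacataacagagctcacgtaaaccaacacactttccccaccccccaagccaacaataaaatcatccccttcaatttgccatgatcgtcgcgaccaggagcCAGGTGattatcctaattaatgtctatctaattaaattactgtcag
Mef2c, chr13:83503784-83504033, plus strand: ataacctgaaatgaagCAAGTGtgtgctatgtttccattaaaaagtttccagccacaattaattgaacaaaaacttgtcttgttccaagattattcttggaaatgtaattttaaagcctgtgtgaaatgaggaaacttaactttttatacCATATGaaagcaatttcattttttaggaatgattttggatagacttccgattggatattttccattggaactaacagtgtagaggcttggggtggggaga
Neurod6 held 2 E-boxes, beginning 162 and 132 bases before the start. Neurod2 held 3, at 118, 51 and 17 bases before the start, Tbr1 held 1 at 46 bases, and Mef2c held 2 at 234 and 100 bases in the first of its 3 listed windows. RefSeq windows of 300 bases, from 250 before to 50 after the start, were found for 8 of the 9 members, Bhlhe22 having no entry. Of these, 6 held an E-box and those of Mef2a and Mef2d did not, against 72.3% of all 32851 windows. The sequence CTANNNNTAG, a looser form of the MEF2 motif with any base at N, also reads the same on both strands. It lay in the window of Mef2a alone, beginning 2 bases before the start, and in 3.69% of all windows. A match is a description of the letters and not a sign of binding.

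Levels are given in CPM, the counts of a gene per fixed number of counts in its library, scaled by normalization factors, and a gene is called when the adjusted p of edgeR's quasi-likelihood test, run across all genes with batch as a term, is under 0.05. Library totals ranged from 1048201 to 5888102 counts. They averaged 2092581 in control and 1937093 in GA-Camk2a cortex (2-sided exact permutation test, p = 0.768) and 3777209 against 2179734 in the hippocampus (p = 0.0857). After thinning all libraries to the smallest, 3 of the 9 factors were at an unadjusted p under 0.05 between genotypes in the hippocampus, against 6 without thinning, and 2 were called in either case. The GFP row was too sparse to check the genotype labels: it held at most 4 counts in any library, with counts in 5 of 6 GA-Camk2a (11 in all) and 2 of 5 control cortex libraries (4 in all), and in 2 of 6 GA-Camk2a (2 in all) and 0 of 4 control hippocampus libraries. Cell type markers differed between genotypes in both tissues. Of 8 excitatory neuron markers, 7 were lower in the cortex and 7 in the hippocampus, and their summed level did not overlap between genotypes (3222 to 3517 against 1986 to 2464 CPM in the cortex, 2907 to 3495 against 1651 to 2046 CPM in the hippocampus). Of 8 pan-neuronal markers, 4 were lower in the cortex and 7 in the hippocampus, with summed levels of 4673 to 5464 against 3643 to 3925 CPM and of 4065 to 4413 against 2701 to 3359 CPM. Of 12 microglia markers 9 were higher in each tissue, as were 6 and 7 of 9 astrocyte markers. All 10 markers of striatal neurons were lower in the GA-Camk2a cortex, with summed levels of 944 to 1582 CPM in control and 269 to 641 CPM in GA-Camk2a libraries. In the hippocampus 6 of these 10 passed the low-count filter and 0 were called (1 at an unadjusted p under 0.05 in edgeR). The part of these shifts in the results for the 9 factors was not tested.

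**Figure D1:**
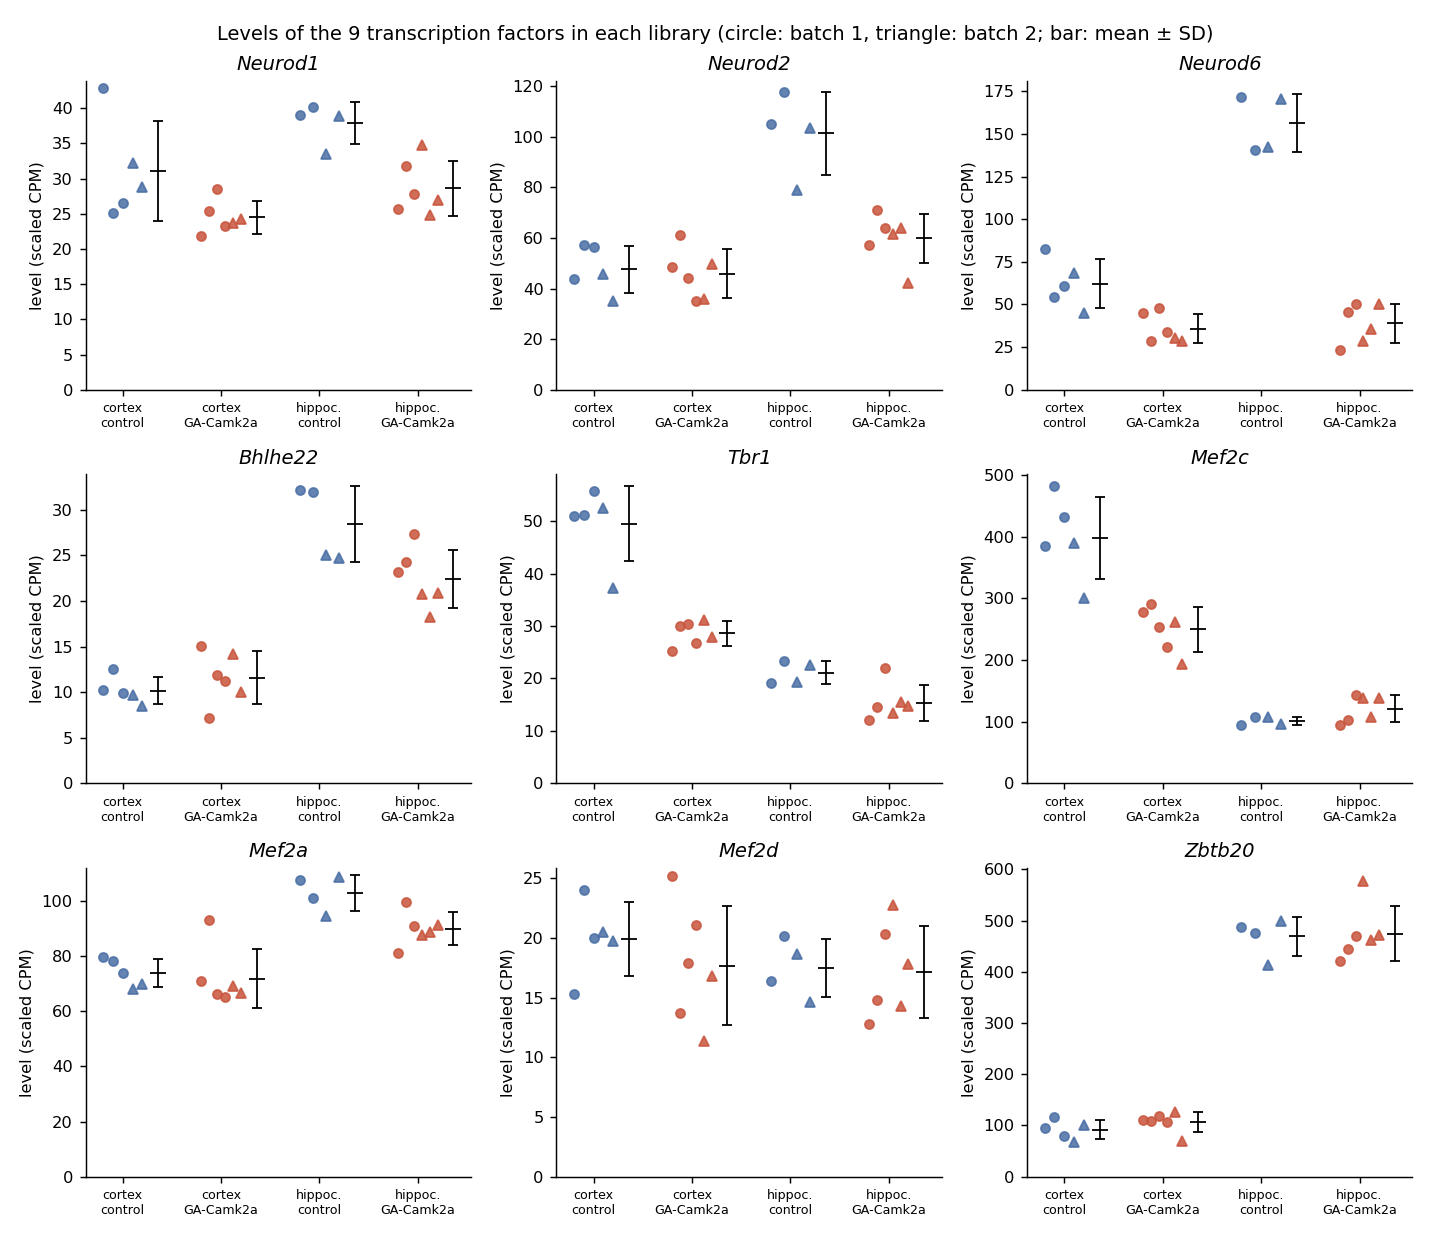
Scaled CPM of each of the 9 factors (vertical axis) in the 4 groups, with 1 point per library, circles for batch 1, triangles for batch 2, and the mean with its SD beside the points. Neurod6 libraries of the GA-Camk2a hippocampus sit between 23.6 and 50.5 CPM, below the 141 CPM of the lowest control library.

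In the cortex of GA-Camk2a mice 3 of the 9 factors fell and 0 rose. Tbr1 was at 56.7%, Neurod6 at 58.4% and Mef2c at 62.0% of the control level. Of the 13058 genes tested there, 12.5% were called, 6.17% as lower and 6.35% as higher. Across all genes the median log2 fold change was -0.01, and across the 9 factors it was -0.18. The excitatory and striatal neuron markers fell in the same cortex libraries.

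In the hippocampus of GA-Camk2a mice 2 of the 9 factors fell and 0 rose. Neurod6 was at 25.5% and Neurod2 at 60.5% of the control level. Of the 14884 genes tested, 10.9% were called, 5.97% as lower and 4.97% as higher. The median log2 fold change was 0.02 across all genes and -0.33 across the 9 factors. These are counts of a short list, and nothing particular to the list is read from them.

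**Figure D2:**
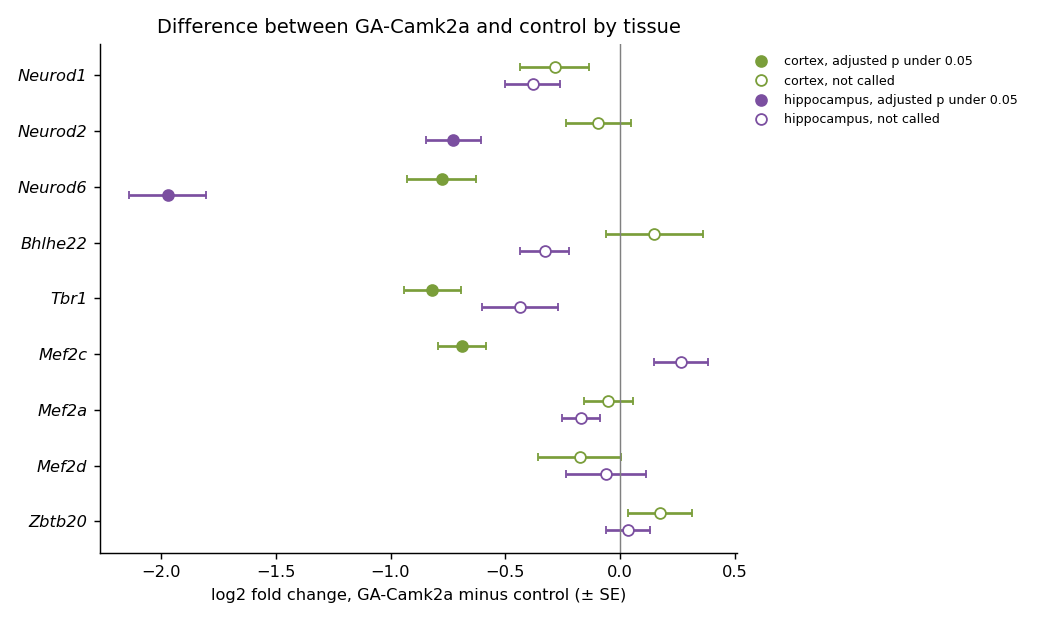
Fitted log2 fold change of GA-Camk2a minus control (horizontal axis, with its SE) for the 9 factors in cortex and hippocampus, filled where the adjusted p is under 0.05. Neurod6 stands at -1.97 in the hippocampus and -0.78 in the cortex, and Mef2c at -0.69 in the cortex and 0.27 in the hippocampus.

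Neurod6 gave the largest difference. In control hippocampus its levels were 172, 142, 171 and 141 CPM, and in the GA-Camk2a hippocampus they ran from 23.6 through a median of 40.8 to 50.5 CPM. The groups were far apart, the highest GA-Camk2a library lying below the lowest control. The log2 fold change was -1.97 ± 0.17 (SE, n = 4 and 6, edgeR adjusted p = 7.16e-06). In this fit, 0 of the 1628 called genes had a larger fall. The value was -1.97 (adjusted p = 0.0324) within batch 1 and -1.98 (adjusted p = 5.60e-05) within batch 2.

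In control cortex, Neurod6 stood at 82.5, 68.2, 54.3, 44.7 and 60.6 CPM, and in the GA-Camk2a cortex it ran from 28.5 through 32.2 to 47.7 CPM. Of the 6 GA-Camk2a libraries, 4 lay below all controls and the groups overlapped slightly. The log2 fold change was -0.78 ± 0.15 (SE, n = 5 and 6, edgeR adjusted p = 0.00121). It was -0.73 (adjusted p = 0.0180) within batch 1 and -0.89 (adjusted p = 0.0699) within batch 2, which holds 2 libraries of each genotype.

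The fall of Neurod6 was larger in the hippocampus. The interaction of genotype and tissue was -1.23 ± 0.25 log2 units (SE, n = 21 libraries, edgeR adjusted p = 0.0271), a contrast in which 0.4% of 14751 genes were called, 0.251% in this direction. The call was lost when any of 6 libraries was left out, namely those of cortex control mice 31 and 37, cortex GA-Camk2a mouse 23, hippocampus control mice 11 and 31, and hippocampus GA-Camk2a mouse 23, with adjusted p from 0.0541 to 0.0875, and the value stayed between -1.30 and -1.07 over all leave-outs. Within batch 1 it was -1.21 (adjusted p = 0.509) and within batch 2 it was -1.08 (adjusted p = 0.722).

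In the 4 control mice with both libraries, Neurod6 was higher in the hippocampus than in the cortex of the same animal by 1.35 ± 0.34 log2 units (SD), ranging from 1.05 to 1.65. In the 6 GA-Camk2a mice this difference was 0.10 ± 0.52, ranging from -0.63 to 0.67. The ranges of the genotypes did not overlap, which in this direction held for Neurod6 and Neurod2 among the factors and for 1.88% of 14751 genes. GA-Camk2a mice 16 and 23 had more Neurod6 RNA in the cortex. Mice 16, 23, 31, 37 and 41 had their cortex and hippocampus libraries in different batches. Differences within mice, here and below, were not adjusted for batch. In the fits, Neurod6 was 2.61-fold higher in the hippocampus of controls (log2 1.39 ± 0.14, edgeR adjusted p = 2.94e-06) and did not pass the test between the tissues of GA-Camk2a mice (log2 0.20 ± 0.19, edgeR adjusted p = 0.459).

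**Figure D3:**
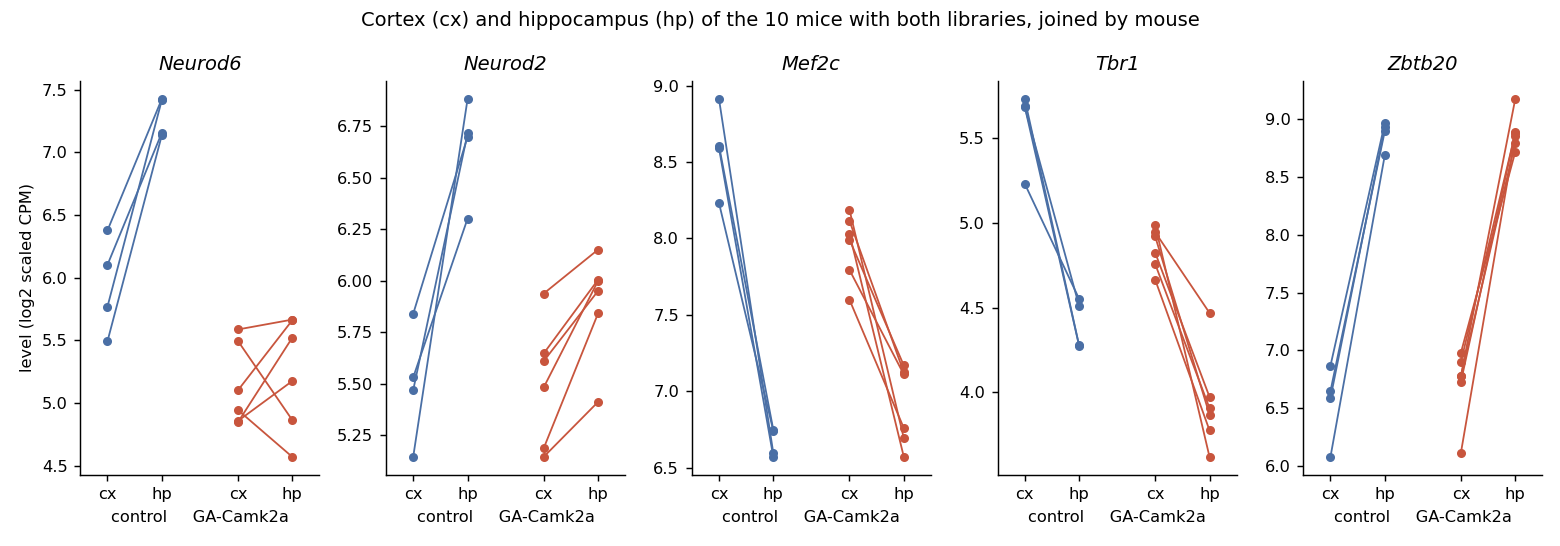
Log2 scaled CPM of 5 of the factors in the cortex (cx) and hippocampus (hp) of the 10 mice with both libraries, each line joining the libraries of a mouse, controls at the left and GA-Camk2a mice at the right of each panel. Neurod6 lines rise by 1.05 to 1.65 in controls and run from -0.63 to 0.67 in GA-Camk2a mice. Lines of mice 16, 23, 31, 37 and 41 join libraries of different batches.

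Neurod2, a close relative of Neurod6 that promotes maturation and synaptic wiring of cortical and hippocampal neurons, was called as lower in the hippocampus and was not called in the cortex. Control hippocampus libraries were at 105, 78.8, 104 and 118 CPM, and GA-Camk2a libraries ran from 42.3 through 62.6 to 70.9 CPM. The groups did not overlap, as for 10.5% of all genes tested in this tissue and 6.27% in this direction. The fitted log2 fold change was -0.73 ± 0.12 (SE, n = 4 and 6, edgeR adjusted p = 0.00111), with -0.80 (adjusted p = 0.0440) within batch 1 and -0.65 (adjusted p = 0.0601) within batch 2.

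In the cortex Neurod2 was at 43.8, 45.8, 57.1, 35.1 and 56.4 CPM in controls and ran from 35.2 through 46.5 to 61.1 CPM in GA-Camk2a mice. These ranges coincide almost wholly, and the log2 fold change was -0.09 ± 0.14 (edgeR adjusted p = 0.734). The interaction was -0.65 ± 0.19 (edgeR adjusted p = 0.177), which does not show a difference between the tissues. With the mouse as a block it was -0.73 and was called (edgeR adjusted p = 0.0415). Within mice, Neurod2 was higher in the hippocampus by 1.15 ± 0.44 log2 units (SD, n = 4) in controls and by 0.39 ± 0.16 (SD, n = 6) in GA-Camk2a mice.

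Neurod1, which drives neuronal differentiation in newborn granule cells, was not called in either tissue. Control hippocampus libraries held 39.1, 33.5, 38.8 and 40.1 CPM and GA-Camk2a libraries ran from 24.8 through 27.3 to 34.8 CPM, 5 of 6 below all controls. The log2 fold change of -0.38 ± 0.12 was just past the threshold (edgeR adjusted p = 0.0513) and was called without GA-Camk2a mouse 23 (-0.46, adjusted p = 0.0187) or mouse 30 (-0.42, adjusted p = 0.0474), with RLE scaling (-0.38, adjusted p = 0.0499) and with voom (-0.37, adjusted p = 0.0454). In the cortex it was -0.28 ± 0.15 (edgeR adjusted p = 0.237). In GENCODE M21 its exons overlap those of Cerkl on the same strand and of Gm26755 on the other, so reads of these genes may be mixed.

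Bhlhe22, a bHLH repressor that shapes the projections of pyramidal neurons, was measured at low depth in the cortex, with 10 to 36 counts per library. Its log2 fold change was 0.15 ± 0.21 there (edgeR adjusted p = 0.711). In the hippocampus controls stood at 32.1, 25.0, 24.8 and 32.0 CPM and GA-Camk2a libraries ran from 18.2 through 22.0 to 27.3 CPM, with slight overlap. The fitted log2 fold change was -0.33 ± 0.11 (edgeR adjusted p = 0.0638).

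Tbr1 had the largest fall of the 9 factors in the cortex. Controls held 51.0, 52.6, 51.2, 37.3 and 55.8 CPM and GA-Camk2a libraries ran from 25.2 through 29.0 to 31.2 CPM. The groups did not overlap, although control mouse 37 stood apart below the other controls. The log2 fold change was -0.82 ± 0.12 (SE, n = 5 and 6, edgeR adjusted p = 0.000101). It was -0.93 (adjusted p = 0.000661) within batch 1 and -0.57 (adjusted p = 0.309) within batch 2, which holds that control mouse.

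In the hippocampus Tbr1 levels were lower in both genotypes, with 19.2, 19.3, 22.5 and 23.3 CPM in controls and 12.1 through 14.6 to 21.9 CPM in GA-Camk2a mice. Here 5 of 6 GA-Camk2a libraries lay below all controls, and the log2 fold change was -0.44 ± 0.16 (edgeR adjusted p = 0.106). Without GA-Camk2a mouse 34, the library at 21.9 CPM, it was -0.57 and called (adjusted p = 0.0193). The interaction was 0.36 ± 0.20 (edgeR adjusted p = 0.561), so no difference between the tissues was shown.

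Mef2c differed between the tissues. It is the MEF2 factor with the best known part in synapse number in cortical neurons, and it is also made by microglia and interneurons. Control cortex stood at 385, 390, 482, 300.4 and 432 CPM and GA-Camk2a cortex ran from 194 through 258 to 292 CPM. No GA-Camk2a library reached the lowest control. The fitted log2 fold change was -0.69 ± 0.10 (SE, n = 5 and 6, edgeR adjusted p = 9.96e-05), with -0.74 (adjusted p = 0.00129) within batch 1 and -0.60 (adjusted p = 0.0863) within batch 2. With Tbr1 it makes 2 of 9 factors without overlap in the cortex, against 6.81% of all genes tested there and 3.42% in this direction.

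Control hippocampus held 94.8, 107, 96.3 and 107 CPM of Mef2c and GA-Camk2a hippocampus ran from 94.9 through 123 to 144 CPM. Of the 6 GA-Camk2a libraries 4 lay above all controls and 2 lay within or near their range. The log2 fold change of 0.27 ± 0.12 was not called (edgeR adjusted p = 0.183). The interaction of genotype and tissue was 0.93 ± 0.18 (SE, n = 21 libraries, edgeR adjusted p = 0.0168), and 0.149% of all genes were called in this direction. It was 0.93 (adjusted p = 0.348) within batch 1 and 0.97 (adjusted p = 0.520) within batch 2, and the call was lost without hippocampus control mouse 31 (0.95, adjusted p = 0.0501). The microglia markers, summed, stood at 454 to 531 CPM in control and 890 to 1432 CPM in GA-Camk2a hippocampus, and at 493 to 608 against 1423 to 2221 CPM in the cortex. Of 9 inhibitory neuron markers, 2 rose and 0 fell in each tissue, Vip (1.31 ± 0.18, edgeR adjusted p = 3.67e-05) and Npy (0.44 ± 0.11, edgeR adjusted p = 0.0117) in the cortex, and Vip (1.16 ± 0.18, edgeR adjusted p = 0.000781) and Gad2 (0.40 ± 0.10, edgeR adjusted p = 0.0150) in the hippocampus. The call of Npy was lost without cortex control mouse 31 (0.38, adjusted p = 0.0526), and that of Gad2 without hippocampus control mouse 20 (0.38, adjusted p = 0.0666) or 31 (0.34, adjusted p = 0.0834), without the filter and after thinning. Within batch 2 the calls of Vip (0.86, adjusted p = 0.131) and Npy (0.22, adjusted p = 0.667) were lost in the cortex, and within batch 1 those of Vip (1.07, adjusted p = 0.143) and Gad2 (0.26, adjusted p = 0.520) in the hippocampus. Striatum markers were called as lower in the cortex (10 of 10) and not in the hippocampus (0 of 6 with edgeR, 1 at an unadjusted p under 0.05). In the interaction 5 of 10 were called, in the direction of Mef2c. The part of microglia, interneurons and striatal neurons in the values of Mef2c was not tested. The summed level of the 9 inhibitory neuron markers was 1245 to 1402 CPM in control and 1458 to 1987 CPM in GA-Camk2a cortex, and 1003 to 1107 against 862 to 1293 CPM in the hippocampus. Their log2 fold changes ran from 0.07 to 1.31 in the cortex and from -0.28 to 1.16 in the hippocampus. There Npy stood at -0.22 ± 0.12 (edgeR adjusted p = 0.277).

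Mef2a and Mef2d, the MEF2 factors found in most tissues, were not called in either tissue. Mef2a had log2 fold changes of -0.05 ± 0.11 (edgeR adjusted p = 0.820) in the cortex and -0.17 ± 0.08 (edgeR adjusted p = 0.226) in the hippocampus. Mef2d had -0.18 ± 0.18 (edgeR adjusted p = 0.586) and -0.06 ± 0.17 (edgeR adjusted p = 0.874) from 12 to 108 counts per library. Both share exons with a gene on the other strand, Lysmd4 for Mef2a and 1700113A16Rik for Mef2d, and it is not stated whether strand was used in counting.

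Zbtb20 was not called between genotypes, with log2 fold changes of 0.17 ± 0.14 (edgeR adjusted p = 0.461) in the cortex and 0.04 ± 0.09 (edgeR adjusted p = 0.870) in the hippocampus. It was the most region-bound of the factors by fitted fold. Control cortex ran from 67.2 to 117 CPM and control hippocampus from 412 to 499 CPM, 5.12-fold higher (log2 2.36 ± 0.13, edgeR adjusted p = 4.02e-09). In GA-Camk2a mice the fold was 4.55 (log2 2.19 ± 0.12, edgeR adjusted p = 4.27e-09). Its exons overlap those of Gm9968 on the other strand and of Mir568 on its own.

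Hippocampus and cortex of control mice differed for 7 of the 9 factors, where 16.3% of 14435 genes were called. The same 7 did not overlap between the tissues, against 14.6% of all genes. Besides Zbtb20 and Neurod6, Bhlhe22 was higher in the hippocampus by 2.87-fold (log2 1.52 ± 0.15, edgeR adjusted p = 3.47e-06), Neurod2 by 2.16-fold (log2 1.11 ± 0.12, edgeR adjusted p = 1.07e-05) and Mef2a by 1.40-fold (log2 0.49 ± 0.10, edgeR adjusted p = 0.00197). Mef2c was at 26.1% (log2 -1.94 ± 0.12, edgeR adjusted p = 1.37e-08) and Tbr1 at 43.2% (log2 -1.21 ± 0.14, edgeR adjusted p = 1.23e-05) of the cortex level. Neurod1 was not called (0.36 ± 0.15, edgeR adjusted p = 0.105) but was without cortex control mouse 11, the highest cortex library (0.45, adjusted p = 0.0355). Mef2d was not called (-0.18 ± 0.16, edgeR adjusted p = 0.506). The call of Mef2a was lost within batch 1 (0.43, adjusted p = 0.0998).

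Between the tissues of GA-Camk2a mice 6 of the 9 factors were called, where 33.2% of 13098 genes were. Bhlhe22 was 2.05-fold higher in the hippocampus (log2 1.04 ± 0.17, edgeR adjusted p = 0.000192), Neurod2 1.36-fold (log2 0.45 ± 0.14, edgeR adjusted p = 0.0195) and Mef2a 1.29-fold (log2 0.37 ± 0.10, edgeR adjusted p = 0.00860). Mef2c was at 49.4% (log2 -1.02 ± 0.13, edgeR adjusted p = 1.59e-05) and Tbr1 at 55.6% (log2 -0.85 ± 0.15, edgeR adjusted p = 0.000356) of the cortex level. The call of Neurod2 was lost without cortex mouse 16 (0.39, adjusted p = 0.0537), cortex mouse 41 (0.36, adjusted p = 0.0514) or hippocampus mouse 30 (0.39, adjusted p = 0.0623), and within each batch. That of Mef2a was also lost within each batch (0.32, adjusted p = 0.134, and 0.45, adjusted p = 0.0780), and that of Bhlhe22 within batch 2 (0.81, adjusted p = 0.0925). The comparisons of tissues and of genotypes share libraries, so their values are not independent of each other.

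Levels were also set against the summed counts of the 8 excitatory neuron markers in the same library. In the hippocampus the log2 ratio of Neurod6 to these markers averaged -4.39 in the control and -5.55 in the GA-Camk2a libraries, a difference of -1.16, and 6 of 6 GA-Camk2a libraries lay below all controls. Of all genes tested in the hippocampus, 0.0537% had a ratio as clearly separated in this direction, 8 genes in all. The ratios of 7 other factors were higher without overlap, led by Mef2c at 1.13, as were those of 69.2% of all genes. Neurod2 overlapped, with a difference of 0.13.

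In the cortex the ratios of the 3 factors that fell overlapped between genotypes. The differences were -0.19 for Neurod6, -0.18 for Tbr1 and -0.07 for Mef2c. Mef2a was higher without overlap, by 0.55, as were 39% of all genes. Against 8 pan-neuronal markers, Neurod6 in the hippocampus was lower by 1.54 log2 units, again without overlap, where the control mean was -4.77 and the GA-Camk2a mean -6.31, as for 0.417% of all genes tested. The ratios of Mef2c (0.74), Zbtb20 (0.51) and Mef2a (0.30) to these markers were higher without overlap in the hippocampus, as were 35.7% of all genes, and that of Mef2a was in the cortex (0.35), as were 22.6% of all genes. In the cortex the pan-neuronal ratios of the 3 factors that fell overlapped between genotypes, with larger differences than against the excitatory markers. They were -0.39 for Neurod6, -0.38 for Tbr1 and -0.26 for Mef2c, with 4, 5 and 2 of 6 GA-Camk2a libraries below all controls. Both marker lists used as denominators fell between genotypes.

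**Figure D4:**
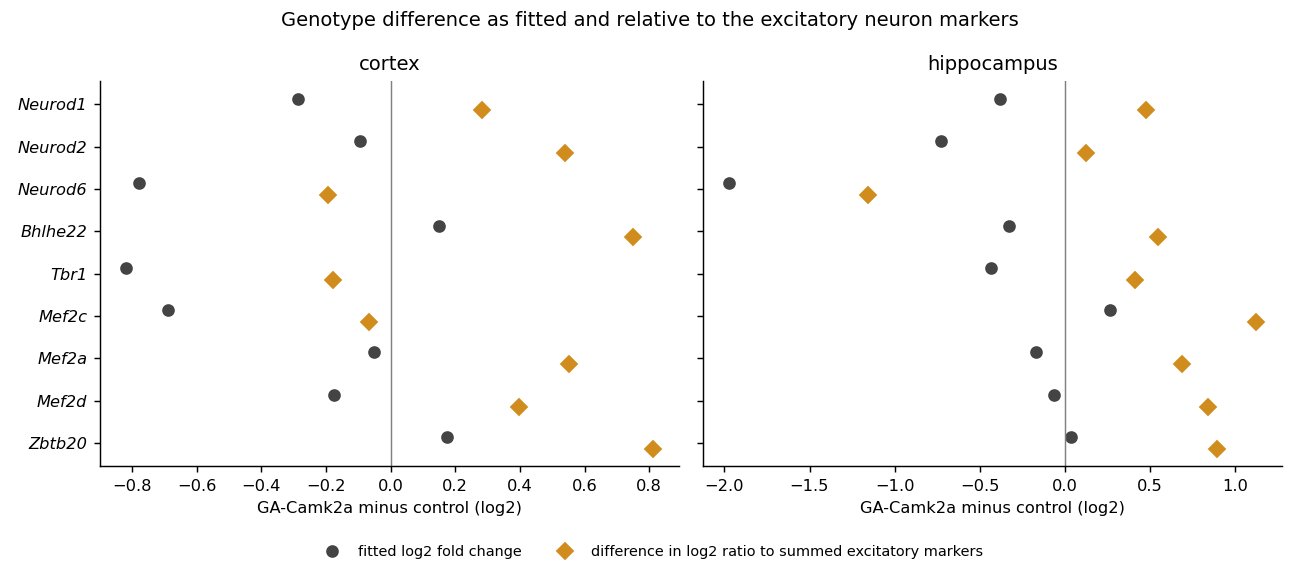
For each factor, the fitted log2 fold change of GA-Camk2a minus control (circles) and the difference in the log2 ratio to the summed excitatory neuron markers (diamonds), in cortex (left) and hippocampus (right), on separate horizontal scales. In the hippocampus Neurod6 stays at -1.16 on the ratio while Mef2c reaches 1.13.

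Dimer partners and inhibitors of the bHLH factors were examined as lists. The 3 E proteins, Tcf3, Tcf4 and Tcf12, gave 0 calls with edgeR in each tissue (1 at an unadjusted p under 0.05 in each). In the cortex their log2 fold changes were 0.40 ± 0.19 for Tcf3, -0.12 ± 0.13 for Tcf4 and -0.03 ± 0.18 for Tcf12. In the hippocampus they were 0.25 ± 0.16, -0.01 ± 0.08 and 0.36 ± 0.15.

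The 4 Id genes all rose in the hippocampus. Id3 rose by 1.01 ± 0.14 (edgeR adjusted p = 0.000262), Id1 by 0.80 ± 0.17 (edgeR adjusted p = 0.00517), Id4 by 0.76 ± 0.11 (edgeR adjusted p = 0.000512) and Id2 by 0.49 ± 0.08 (edgeR adjusted p = 0.00150) on the log2 scale. Their median was 0.78, against 0.02 over all genes. In the cortex Id3 rose by 0.99 ± 0.14 (edgeR adjusted p = 3.75e-05) and Id1 by 0.54 ± 0.17 (edgeR adjusted p = 0.0428), while Id2 stood at -0.06 ± 0.10 (edgeR adjusted p = 0.763) and Id4 at 0.05 ± 0.11 (edgeR adjusted p = 0.816). The call of Id1 in the cortex was lost without any of 8 of the 11 libraries (adjusted p from 0.0513 to 0.116), all but those of GA-Camk2a mice 30, 34 and 35, and under 7 of 9 other settings, all but upper quartile and RLE scaling (adjusted p up to 0.729). In the hippocampus the calls of all 4 were lost within batch 1 (adjusted p from 0.0915 to 0.242), and that of Id1 also within batch 2 (0.84, adjusted p = 0.0539) and after thinning (0.79, adjusted p = 0.0616). The call of Id3 in the cortex was lost within batch 2 (0.61, adjusted p = 0.0631). Astrocytes and vessels are known to make Id1 and Id3. The astrocyte markers, summed, stood at 3084 to 3427 CPM in control and 4476 to 5801 CPM in GA-Camk2a hippocampus. The endothelium markers stood at 149 to 157 against 154 to 206 CPM there, with 0 of 8 called by edgeR (2 at an unadjusted p under 0.05), and 0 of 7 were called in the cortex (3 at an unadjusted p under 0.05). The part of either cell type in the values of the Id genes was not tested.

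Of 9 other bHLH genes tested in each tissue, 0 were called in the cortex with edgeR (3 at an unadjusted p under 0.05) and 1 in the hippocampus.

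Other transcription factors of forebrain excitatory neurons were lower in part. Of 30 tested, 14 fell and 0 rose in the cortex, with a median of -0.35 against -0.01 for all genes. Bcl11b, which marks subcerebral projection neurons and is also made by striatal neurons, fell by 0.93 ± 0.12 (edgeR adjusted p = 2.14e-05). Lmo3, a LIM-only cofactor, fell by 0.78 ± 0.12 (edgeR adjusted p = 0.000154), and Myt1l, a repressor of non-neuronal genes, fell by 0.63 ± 0.11 (edgeR adjusted p = 0.000340). In the hippocampus 10 of 30 fell and 0 rose, with a median of -0.10, among them Bcl11a by 0.71 ± 0.11 (edgeR adjusted p = 0.000651), Bcl11b by 0.53 ± 0.09 (edgeR adjusted p = 0.00140) and Lmo3 by 0.55 ± 0.10 (edgeR adjusted p = 0.00236). Within batch 2 the cortex calls of Lmo3 (-0.61, adjusted p = 0.146) and Myt1l (-0.57, adjusted p = 0.194) were lost. Within batch 1 the hippocampus calls of Bcl11a (-0.66, adjusted p = 0.147), Bcl11b (-0.49, adjusted p = 0.210) and Lmo3 (-0.36, adjusted p = 0.311) were lost.

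Of 13 regulators of MEF2 activity, 5 fell and 0 rose in the cortex. Ppp3ca, the main catalytic subunit of calcineurin in the brain, fell by 0.96 ± 0.09 (edgeR adjusted p = 3.21e-07), Camk4, a nuclear calcium-dependent kinase, by 0.87 ± 0.15 (edgeR adjusted p = 0.000387) and Ppp3r1, the regulatory subunit of calcineurin, by 0.53 ± 0.10 (edgeR adjusted p = 0.000678). In the hippocampus 4 of 13 fell and 0 rose, among them Ppp3ca by 0.96 ± 0.07 (edgeR adjusted p = 4.48e-06), Ppp3r1 by 0.88 ± 0.11 (edgeR adjusted p = 0.000125) and Ppp3cb, a second catalytic subunit, by 0.58 ± 0.08 (edgeR adjusted p = 0.000280). The calls of Camk4 (-1.07, adjusted p = 0.0508) and Ppp3r1 (-0.41, adjusted p = 0.260) in the cortex were lost within batch 2, and those of Ppp3r1 (-0.85, adjusted p = 0.0837) and Ppp3cb (-0.53, adjusted p = 0.131) in the hippocampus within batch 1, while Ppp3ca was called within each batch in both tissues. The median of the list was -0.26 in the cortex and -0.19 in the hippocampus.

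Of 11 genes reported as MEF2 targets, 6 fell and 0 rose in the cortex. Arc, an activity-induced gene of the synapse, fell by 1.63 ± 0.23 (edgeR adjusted p = 4.04e-05), Homer1, a postsynaptic scaffold, by 1.12 ± 0.17 (edgeR adjusted p = 8.04e-05) and Nr4a1, an activity-induced nuclear receptor, by 1.03 ± 0.26 (edgeR adjusted p = 0.00993). The call of Nr4a1 was lost without control mouse 31, where the value was -0.65 (adjusted p = 0.0984), under DESeq2, where it was -0.92 (adjusted p = 0.153), and with voom, after thinning and within batch 2 (-0.78, -0.73 and -0.62, adjusted p = 0.0561, 0.100 and 0.222). In the hippocampus 5 of 11 fell and 0 rose, among them Lgi1, a secreted synaptic protein, by 0.51 ± 0.10 (edgeR adjusted p = 0.00347) and Arc by 1.37 ± 0.30 (edgeR adjusted p = 0.00736). Both of these calls were lost within batch 1 (-0.40, adjusted p = 0.258 for Lgi1, and -1.18, adjusted p = 0.256 for Arc), and that of Lgi1 also after thinning (-0.47, adjusted p = 0.0651). Several of these genes follow neuronal activity through other factors as well, so the list is not a readout of MEF2 proteins alone.

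Of 7 partners and reported targets of TBR1, 3 fell and 1 rose in the cortex, and 1 fell and 1 rose in the hippocampus. In the cortex Ntng1, an axonal adhesion protein, fell by 0.80 ± 0.14 (edgeR adjusted p = 0.000496) and Grin2b, an NMDA receptor subunit, by 0.62 ± 0.13 (edgeR adjusted p = 0.00234). Grin2b also fell in the hippocampus, by 0.64 ± 0.12 (edgeR adjusted p = 0.00309). The cortex calls of Ntng1 (-0.66, adjusted p = 0.220) and Grin2b (-0.37, adjusted p = 0.424) were lost within batch 2, and the hippocampus call of Grin2b (-0.54, adjusted p = 0.324) within batch 1. Reln, the secreted protein reelin, was lower in the cortex (-0.60 ± 0.17, edgeR adjusted p = 0.0253) and higher in the hippocampus (0.72 ± 0.22, edgeR adjusted p = 0.0458). These calls of Reln were lost without any of 5 of 11 cortex libraries, those of control mice 31, 37 and 38 and GA-Camk2a mice 30 and 35 (adjusted p from 0.0585 to 0.117), and without any of 7 of 10 hippocampus libraries, all but those of control mouse 11 and GA-Camk2a mice 30 and 35 (adjusted p from 0.0589 to 0.214). The call in the cortex was also lost under DESeq2, without the batch term, after thinning and within each batch. In the hippocampus it was lost without the batch term, after thinning and within batch 1 (0.32, adjusted p = 0.648), and kept within batch 2 (1.19, adjusted p = 0.0246).

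Of 11 markers of hippocampal subfields tested in the hippocampus 6 fell and 0 rose, and summed levels were 378 to 446 CPM in controls and 236 to 250 CPM in GA-Camk2a mice. The 3 with the lowest adjusted p were Spink8, a marker of CA1 pyramidal cells (-1.57 ± 0.13, edgeR adjusted p = 6.69e-06), Rgs14, a marker of CA2 (-0.92 ± 0.11, edgeR adjusted p = 7.28e-05), and Wfs1, a marker of CA1 (-0.83 ± 0.13, edgeR adjusted p = 0.000860), whose call was lost within batch 1 (-0.69, adjusted p = 0.175). Of the list 5 were not called there, among them the dentate gyrus markers Prox1, C1ql2, Dsp and Tdo2, named after their values were seen. Their log2 fold changes were 0.21 ± 0.17, -0.22 ± 0.14, -0.15 ± 0.18 and -0.50 ± 0.35 (edgeR adjusted p from 0.378 to 0.675). In the cortex 8 of the 11 could be tested and 0 were called with edgeR (1 at an unadjusted p under 0.05). Of the neuroblast markers 2 were tested and 0 were called with edgeR in each tissue, with 0 in the cortex and 1 in the hippocampus at an unadjusted p under 0.05, namely Dcx (0.47 ± 0.16, edgeR adjusted p = 0.0771).

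**Figure D5:**
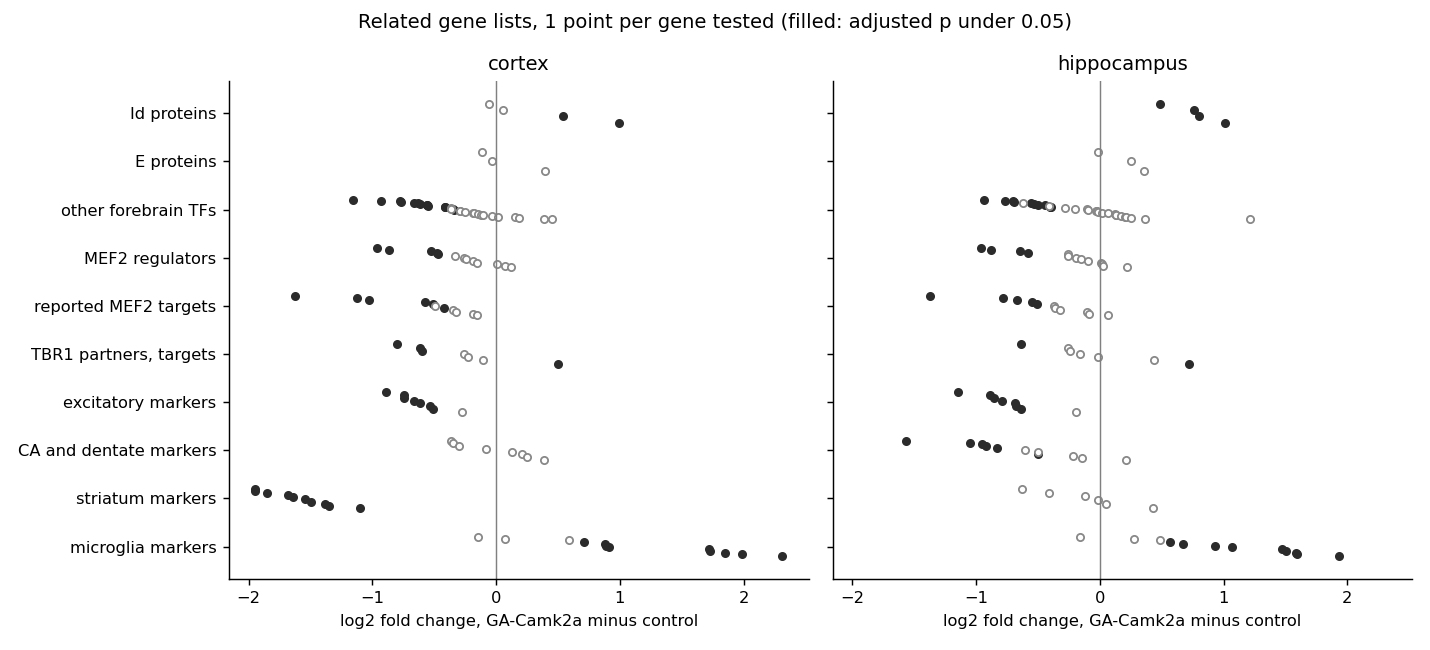
Log2 fold change of GA-Camk2a minus control (horizontal axis) for every gene tested of 10 lists, cortex at the left and hippocampus at the right, filled where the adjusted p is under 0.05. The Id genes lie between 0.49 and 1.01 in the hippocampus, and the striatum markers between -1.95 and -1.10 in the cortex.

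For each factor, the genes with the most similar pattern over the 21 libraries were found among 10830 genes by the root mean square difference of mean-centred log2 CPM. For Neurod6 these were Ddn, a dendritic protein, at 0.39 and Hpca, a neuronal calcium sensor, at 0.45, where the median over all genes was 0.90. In the hippocampus Ddn fell by 1.46 ± 0.09 (edgeR adjusted p = 6.86e-07) and Hpca by 1.47 ± 0.15 (edgeR adjusted p = 3.31e-05), less than Neurod6 in fitted value. For Mef2c they were Rasgef1b at 0.32 and Ngef at 0.32, both signalling exchange factors, against a median of 0.83.

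Neurod2 lay nearest to Nptx1, a secreted pentraxin of synapses, at 0.19, and Fam155a at 0.23. Tbr1 lay nearest to 1110008P14Rik and Ttc9b, at 0.24 and 0.25. Bhlhe22 lay nearest to Kctd4 at 0.27 and Zeb2 at 0.28, and Zbtb20 to Prox1, a factor of dentate granule cells, at 0.33 and Tanc1 at 0.36. Mef2a (Tmod2 at 0.12, Secisbp2l at 0.13), Mef2d (Pik3ca and Fbll1, both near 0.21 to 0.22) and Neurod1 (Gabbr2 and Zfr, both at 0.18) varied little themselves, with a spread of 0.24 to 0.29, so many genes lay close to them. Whether this likeness lies between the 4 groups or within them was not tested, and it says nothing of shared control.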

How the data were processed

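Bulk RNA of mouse cortex and hippocampus was measured in 21 libraries. The authors deposited raw counts for each gene and library, made with zUMIs on GRCm39 (mm39 per the labels) with a GFP sequence added. The submitters' processing notes also name FastQC 0.11.8, cutadapt 1.12, STAR and DESeq2 1.44. The annotation release, the use of molecular identifiers, intronic reads and strand are not given in the sources used here, so overlapping genes are uncertain, and counting error understates technical error if reads were counted.

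Symbols came from GENCODE M21 (GRCm38) by Ensembl number and matched 43308 of 64361 genes. The GFP row, 3.38e-05% of counts, stayed out of library sizes and tests. No column was unused. Counts were tested with edgeR 4.0.16 in R 4.3.3 (TMM, filterByExpr with a minimum count of 10, quasi-likelihood F-test, batch as a term, Benjamini-Hochberg adjustment, threshold 0.05) in 5 comparisons: genotype in each tissue, tissue in each genotype, and their interaction. The study itself used DESeq2 for these libraries and names no covariate for them. SEs were derived from the log2 fold change and F. Scaled CPM used TMM factors over all libraries; log2 values added 0.5 counts. The pipeline was tested on simulated data.

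The 10 mice with both tissues were identified by the animal number in the labels. Residual correlations of their 2 libraries over 5077 genes, after group and batch, ran from -0.13 to 0.33. Replicates within groups differed beyond sampling noise (chi-square per degree of freedom 2.10 to 15.1 in 46 pairs, 0 identical), and p-values of genotype within a tissue measure the spread between mice. The main fits of tissue and of the interaction had no mouse term and treated both libraries of a mouse as independent. The mouse block was used as an alternative only.

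Named genes were the 9 factors, up to 3 genes with the lowest adjusted p of each related list and genotype comparison, every gene of lists under 5 genes, and the 2 nearest genes by pattern among those with a mean log2 CPM of at least 3. The 4 dentate gyrus markers were named outside this rule. The values of 2 genes of the related lists are not reported here, and the counts include them. The list of reported targets was compiled from general knowledge. The members and lists were chosen with earlier results of these data known. Alternatives were another tool (DESeq2 1.42.0, or limma 3.58.1 voom with quality weights), no batch term, no filter, upper quartile or RLE scaling, thinning to the smallest library, each batch alone, the mouse as a block, and leaving out each library.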

Additional observations from a re-analysis of the deposited data

Results flagged for a closer look

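Levels of the 9 factors were checked in each of the 4 groups for a library far from the rest, 36 checks in all, of which chance alone flags about 1 in 20, and 5 were found. Tbr1 in the cortex of control mouse 37 was at 37.3 CPM, where the other 4 controls held 51.0 to 55.8 CPM. Zbtb20 in the cortex of GA-Camk2a mouse 35 was at 69.1 CPM against 106 to 126 CPM in the others, and in the hippocampus of GA-Camk2a mouse 23 it was at 577 CPM against 420.2 to 472 CPM. Mef2a in the cortex of GA-Camk2a mouse 30 was at 93.1 CPM against 65.0 to 70.9 CPM. Neurod1 in the hippocampus of control mouse 20 was at 33.5 CPM against 38.8 to 40.1 CPM.

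The effect of genotype differed between the tissues for Neurod6 and Mef2c, by the interaction test. For Neurod6 the log2 fold change was lower in the hippocampus than in the cortex by an interaction of -1.23 (edgeR adjusted p = 0.0271). For Mef2c the interaction was 0.93 (edgeR adjusted p = 0.0168), from a fall in the cortex and a value of 0.27 in the hippocampus that was not called. Both calls were lost within each batch alone, where the values were -1.21 and -1.08 for Neurod6 and 0.93 and 0.97 for Mef2c.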

How the results depend on the processing

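For the 9 factors, 947 of 999 alternative values kept direction and side of the threshold, 24 lost a call, 7 gained a call and 21 changed sign. The losses came from single batches (14) and from leaving out a library (10). The fit with the mouse number as replicate block added the call of Neurod2 in the interaction (-0.73, adjusted p = 0.0415) and changed no other call of the 9. For the other genes that the naming rule takes 1345 of 1463 values were kept, 103 lost the call and 15 changed sign. None of the values that changed sign was called in the main fit or the alternative. The cause of these changes was not tested, beyond the fewer counts of the thinned and the fewer libraries of the single-batch fits.

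Called genes fell from 1635 to 1077 after thinning, 876 in batch 1 and 230 in batch 2 for genotype in the cortex, from 1628 to 880, 115 and 681 in the hippocampus, from 2351 to 1409, 1241 and 1314 for tissue in controls, and from 4350 to 2892, 2585 and 1353 for tissue in GA-Camk2a mice. For the interaction, 59 became 127 with DESeq2, 36 without the batch term, 159 without the filter, 22 after thinning and 0 in each batch (edgeR, 1133 and 803 genes at an unadjusted p under 0.05). Its split into 22 higher and 37 lower became 34 and 35 with RLE scaling. Factors called fell in batch 2 from 3 to 0 in the cortex (edgeR, 3 at an unadjusted p under 0.05), from 2 to 1 in the hippocampus and from 6 to 3 for tissue in GA-Camk2a mice, and in each batch from 2 to 0 for the interaction (3 at an unadjusted p under 0.05 in each). Batch 1 lost Neurod2 (edgeR adjusted p = 0.0711) and Mef2a (0.134) for tissue in GA-Camk2a mice, and Mef2a (0.0998) for tissue in controls. Leaving out a library gave 1038 to 1526 called genes in the cortex, 1038 to 1831 in the hippocampus, 1580 to 3168 for tissue in controls, 3668 to 4262 in GA-Camk2a mice and 22 to 66 for the interaction, and 3 to 3, 2 to 3, 7 to 8, 5 to 6 and 0 to 2 factors.

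Signs changed in the cortex for Mef2a after thinning (0.021), Tcf12 with voom (0.031) and, in batch 2, for Neurod2 (0.15), Tcf4 (0.030), Tcf12 (0.0048) and Id2 (0.23). In the hippocampus they changed for Zbtb20 without the filter (-0.037) and in batch 1 (-0.12), Tcf4 with upper quartile scaling (0.0028) and in batch 2 (0.019), and Mef2d after thinning (0.17) and in batch 2 (0.10). For tissue in GA-Camk2a mice Mef2d changed after thinning (0.10), in batch 2 (0.37) and with the block (0.049), and in the interaction Mef2d in batch 1 (-0.13), Neurod1 in batch 2 (0.061) and Zbtb20 in batch 2 (0.038). Leaving out a library gave -0.12 to 0.0027 for Id2, -0.17 to 0.0064 for Neurod2, -0.18 to 0.10 for Tcf12 and -0.23 to 0.026 for Tcf4 in the cortex, -0.16 to 0.044 for Mef2d, -0.060 to 0.025 for Tcf4 and -0.057 to 0.067 for Zbtb20 in the hippocampus, -0.19 to 0.043 for Mef2d between tissues of GA-Camk2a mice, and -0.00089 to 0.22 for Mef2d and -0.19 to 0.0039 for Neurod1 in the interaction. Bhlhe22 and Mef2d had the lowest minimum counts of the 9 factors, with as few as 10 and 12 in a library.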
